A study of Mus musculus with 12 samples.

Results

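Messenger RNA of 9 genes of the CUGBP1 and gankyrin circuit was followed in mouse liver by RNA sequencing. They were taken by gene symbol: Celf1, Psmd10, Cebpa, Cebpb, Hnf4a, Nr1h4, Trp53, Rb1 and Hdac1, 9 of 31253 symbols listed in each of 12 libraries. The choice went by name and set no threshold on a measured value, but it was made with earlier results of these data known. The libraries formed 4 groups of 3, from livers of male C57BL6 mice. The S302A_DEN group carried the CUGBP1 S302A knock-in allele and was given diethylnitrosamine (DEN), which alkylates DNA and causes liver tumours, at 50 µg per g of body weight when 3 weeks old. The S302A_Ctrl group carried the same allele and received nothing. WT_DEN mice were wild type and received the same dose of DEN at the same age, and WT_Ctrl mice were wild type and untreated. All livers were collected at 33 to 41 weeks of age, given in another field as 30 to 38 weeks, which matches the time after treatment. The age of each single mouse, the copy number of the allele and whether tumour or surrounding tissue was taken are not given in the labels. They describe each library as from a mouse but give no animal identifiers, so the p-values below measure the spread between these libraries.

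CUGBP1, the protein of Celf1, binds GU-rich stretches of RNA and controls splicing, decay and translation. Kinases that phosphorylate it change its partners, among them the translation initiation factor eIF2. Gankyrin, the protein of Psmd10, is an ankyrin-repeat chaperone of the 19S proteasome particle and an oncoprotein of liver. It binds the retinoblastoma protein and the p53 ligase MDM2, and it has been tied in mouse liver to loss of the proteins C/EBP alpha, HNF4A, p53, RB and CUGBP1. The bile acid receptor FXR, encoded by Nr1h4, has been described in mouse liver as a repressor of Psmd10, and complexes of C/EBP beta and HDAC1 as repressors of liver genes. Those relations concern proteins for the most part, whereas the values here are messenger RNA levels.

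Short stretches of coding sequence are shown because the allele and the gankyrin interaction are named for them. These are the spliced reference sequence of GENCODE M21 on mm10, printed 5′ to 3′, with the codons of interest in capitals. Celf1 lies on chromosome 2 from 90940382 to 91019497 on the plus strand. In the 486-residue isoform Celf1-203, the residue that the allele name counts to has the codon AGC, serine, at chr2:91009216-91009218 in exon 10 of 14. In the 483-residue isoform Celf1-204, the codon at that position is another AGC of the same run of serine codons, at chr2:91009225-91009227 in exon 9 of 13. The 513-residue isoforms have glutamine at that position and the 487-residue isoform has proline. Which isoform the allele name counts in is not given. Psmd10 lies on chromosome X from 140948429 to 140956728 on the minus strand. The LxCxE motif with which gankyrin is known to bind the retinoblastoma protein is encoded by codons 178 to 182 of the 231-residue isoform Psmd10-201, at chrX:140949291-140949305 in exon 5 of 5.
Celf1-203 around the named codon: gggtcttcaccgAGCtccagcagcagt
Celf1-204 around the named codon: ccgagctccagcAGCagtaattctgtc
Psmd10-201 around the LxCxE codons: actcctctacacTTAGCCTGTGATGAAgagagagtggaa
The knock-in's own codon is not given in the sources used here. A transcript level does not show which codon is present, so the Celf1 values below do not check the genotype labels. Whether the allele alters the level of its own transcript was not tested.

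Values were TPM, a relative measure per transcript length that allows levels of different genes to be compared within a library. No value lay below 1, so 1 is read as 1 or less, and the sequencing depth behind a value is unknown. S302A_DEN replicate 3 stood apart: its Spearman correlations with the other 11 libraries over the tested genes were 0.877 to 0.913, against 0.937 to 0.980 among those 11. Of 12120 tested genes, 87.0% stood above both other S302A_DEN libraries in this one, with a median log2 difference of 0.79. Its median-of-ratios scaling factor was 1.69, against 0.820 to 1.18 in the other libraries. Its summed macrophage markers reached 688 TPM, against 98.8 and 260 TPM in the other S302A_DEN libraries, and its summed markers of dividing cells reached 132 TPM, against 27.3 and 30.9 TPM. The summed markers of cholangiocytes, the cells that line bile ducts, were 63.7 to 143 TPM in S302A_DEN, 21.1 to 24.1 TPM in S302A_Ctrl, 24.1 to 33.3 TPM in WT_DEN and 23.8 to 39.7 TPM in WT_Ctrl, and 4 of the 8, among them Krt7, Cftr and Cldn4, stood at 1 in every library. Only Sox9 and Spp1 were above 1 in at least 3 libraries. Krt19 and Epcam stood at 1 in every library outside S302A_DEN. There the sum thus held Sox9, Spp1 and floor values. The 10 hepatocyte markers, led by albumin, summed to 56951 to 68266 TPM in S302A_DEN, 50910 to 64593 TPM in S302A_Ctrl, 75767 to 91116 TPM in WT_DEN and 47387 to 67992 TPM in WT_Ctrl, as the label of liver requires. In bulk tissue, fewer cells of a type and less RNA per cell cannot be told apart, and the part of other cell types in the results below was not tested.

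All 9 genes were detected above the floor in all 12 libraries and passed the filter of a TPM above 1 in at least 3 libraries. Hnf4a had the highest mean level over the 12 libraries, 140 TPM, which is higher than 94.2% of tested genes. Cebpa followed at 121 TPM and Nr1h4 at 83.5 TPM. Cebpb averaged 37.5 TPM. Celf1 averaged 15.5 TPM, Trp53 14.9 TPM and Hdac1 12.9 TPM. Psmd10 averaged 8.99 TPM and Rb1, the lowest, 1.86 TPM. The transcription factor genes of hepatocytes thus stood above the chromatin, RNA-binding and tumour suppressor genes, but each pair of neighbours in this order down to Psmd10 had overlapping ranges over the libraries. Rb1 stood at 1.34 to 3.97 TPM and did not reach the lowest Psmd10 value of 5.89 TPM. Without S302A_DEN replicate 3 the ratio of the highest to the lowest library was 1.52 for Rb1, 1.59 for Hdac1, 1.79 for Psmd10 and 1.89 for Trp53, whereas with it those ratios were 2.96, 2.50, 4.18 and 3.63. Cebpb varied most among the other 11 libraries, with a ratio of 3.51.

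**Figure D1:**
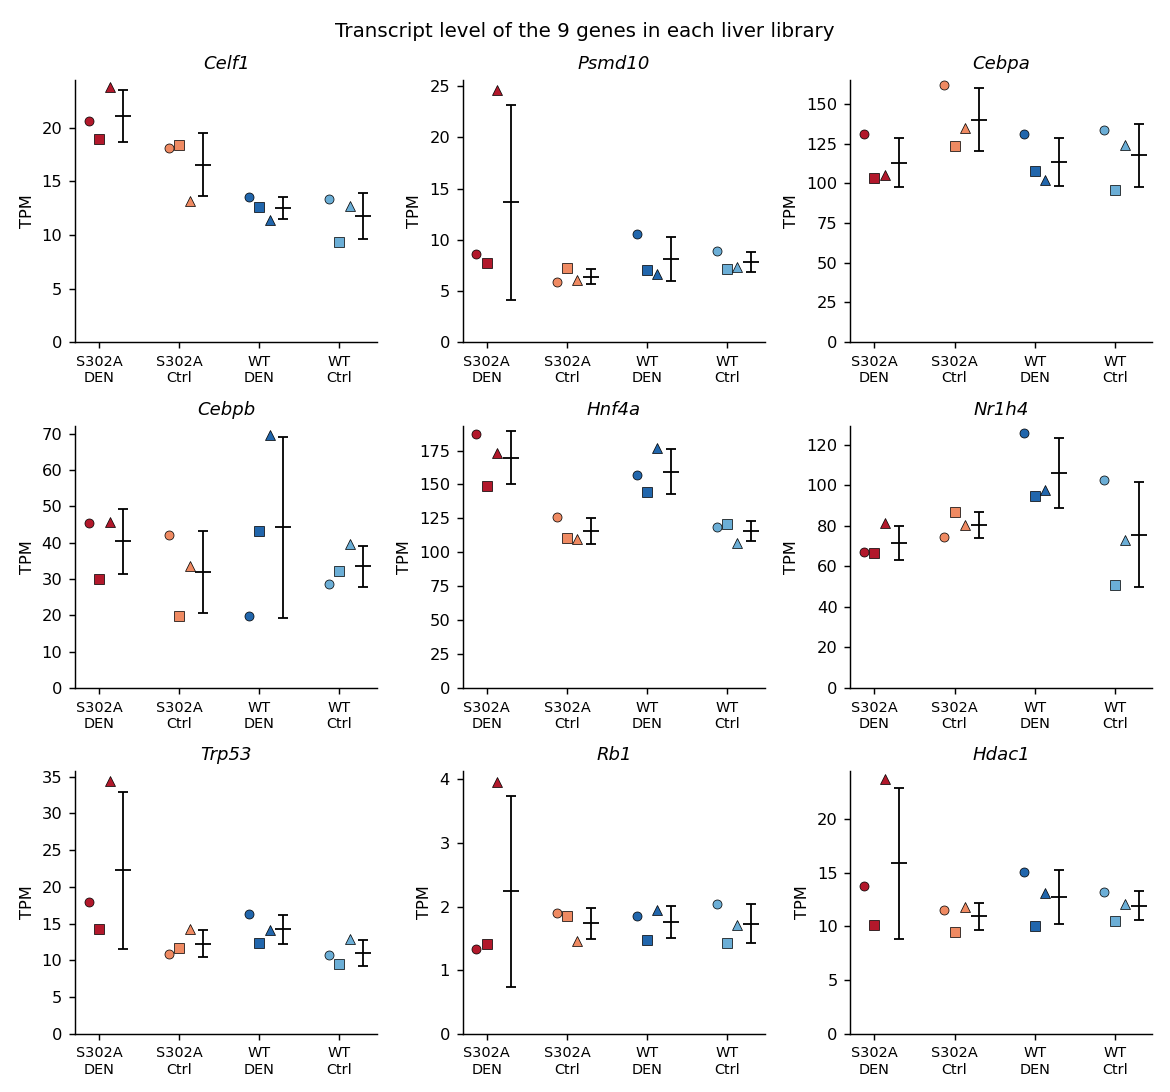
TPM (y axis, from 0) of the 9 genes in each library, by group on the x axis. Circles, squares and triangles are replicates 1, 2 and 3, and the bars beside them give the mean ± SD of the 3 libraries. The triangle of S302A_DEN lies far above every other library for Psmd10 (24.6 TPM), Trp53 (34.5 TPM), Rb1 (3.97 TPM) and Hdac1 (23.7 TPM), while the Hnf4a values of both DEN groups lie above those of both untreated groups.

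None of the 9 genes passed the test in any of 7 contrasts. The test was limma on log2(TPM + 1) in 1 model of the 4 groups, two-sided, with Benjamini-Hochberg adjustment over 12120 genes and a threshold of 0.05. Every log2 difference below is on this log2(TPM + 1) scale, with its standard error (SE). For DEN in S302A livers 0 of 9 were called, against 0.619% of all tested genes, and 3 of 9 had an unadjusted p under 0.05, against 16.4%. For DEN in wild-type livers 0 of 9 were called, against 0.132%, and 2 of 9 had such an unadjusted p, against 8.26%. For S302A against wild type after DEN 0 of 9 were called, against 0.38%, and 2 of 9 had an unadjusted p under 0.05, against 7.83%. For S302A against wild type without DEN 0 of 9 were called, against 0.033%, and 1 of 9 had an unadjusted p under 0.05, against 1.48%. The interaction, which asks whether the DEN difference depends on genotype, gave 0 of 9 called against 0.0413% and 0 of 9 at the unadjusted level against 5.06%. The DEN difference averaged over both genotypes gave 0 of 9 called against 1.34% and 2 of 9 at the unadjusted level against 19.4%. The S302A difference averaged over both treatments gave 0 of 9 called against 0.0165% and 1 of 9 at the unadjusted level against 4.41%. With so few genes called at all, a count of 0 is near the background in each contrast.

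Groups that did not overlap were the next measure. Between S302A_DEN and S302A_Ctrl, 4 of 9 genes (Celf1, Psmd10, Hnf4a and Trp53) had all S302A_DEN libraries above all S302A_Ctrl libraries, against 15.8% of tested genes in that direction. Between WT_DEN and WT_Ctrl, Hnf4a alone did so, against 21.7%. Between S302A_DEN and WT_DEN, Celf1 was higher in all S302A_DEN libraries, against 3.23% of genes in that direction, and Nr1h4 was lower in all of them, against 6.19%. Between S302A_Ctrl and WT_Ctrl no member separated, against 6.96% of genes in either direction. The median log2 difference of the 9 genes was 0.37 for DEN in S302A, beside 0.27 over all tested genes, and 0.09 for DEN in wild type, beside 0.13. It was 0.14 for S302A after DEN, beside 0.07, and 0.01 for S302A without DEN, beside -0.07. Positive differences made up 79.4% of all tested genes for DEN in S302A and 70.3% for DEN in wild type. For S302A after DEN they made up 60.1%. Median-of-ratios scaling, which sets the typical gene equal between libraries, brought the all-gene medians to near 0 and those shares to 50.8%, 47.2% and 53.8%. It also changed which members separated. For DEN in S302A, Psmd10 and Trp53 were then higher without overlap and Cebpa lower, against 24% of all genes in either direction, and for DEN in wild type no member separated, against 26.6%. For S302A after DEN, Celf1 and Trp53 were higher and Nr1h4 lower, against 23.7%, and for S302A without DEN, Celf1 was higher and Psmd10 lower, against 8.13%. A single library carried much of the all-gene medians: without S302A_DEN replicate 3 they were 0.00 for DEN in S302A and -0.20 for S302A after DEN, beside 0.26 and 0.03 over the 9 members. Positive differences then made up 49.3% and 21.0% of all genes. The share of all genes called was then 2.43% for DEN in S302A, 2.17% for DEN in wild type and 5.89% for S302A after DEN, with no member among them.

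**Figure D2:**
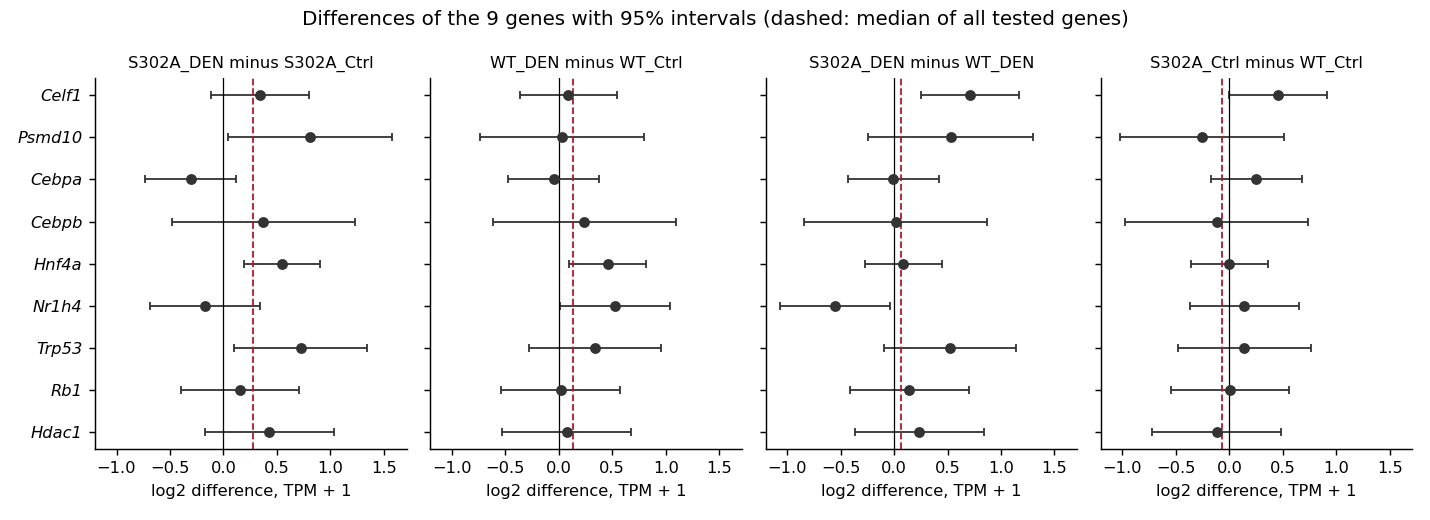
Log2 difference of TPM + 1 (x axis) for each of the 9 genes in the 4 pairwise comparisons, with 95% intervals from the limma fit. The dashed line is the median of all 12120 tested genes. The intervals of Psmd10, Hnf4a and Trp53 lie above 0 for DEN in S302A, and in S302A_DEN against WT_DEN that of Celf1 lies above 0 and that of Nr1h4 below 0, before any adjustment for the number of genes.

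Celf1, the gene that carries the allele, stood higher in S302A than in wild-type libraries. It was at 20.6, 18.97 and 23.8 TPM in S302A_DEN, against 13.5, 12.6 and 11.4 TPM in WT_DEN. Without DEN it was at 18.1, 18.4 and 13.2 TPM in S302A_Ctrl, against 13.3, 9.35 and 12.7 TPM in WT_Ctrl. The DEN-treated groups were apart by a wide gap, whereas S302A_Ctrl replicate 3 lay within the wild-type range. The log2 difference between genotypes was 0.71 ± 0.21 after DEN (SE, limma adjusted p = 0.242) and 0.46 ± 0.21 without DEN (adjusted p = 1). Averaged over treatments it was 0.58 ± 0.15 (adjusted p = 0.436), with 5 of 6 S302A libraries above all 6 wild-type libraries. The averaged value ranged from 0.51 to 0.66 over the alternatives that could be run, with adjusted p between 0.0716 and 1. In S302A_DEN replicate 3 Celf1 was 0.25 above the mean of the other S302A_DEN libraries on the log2 scale, a rise larger than that of 16.6% of tested genes, and without that library the difference after DEN was 0.63 (adjusted p = 0.0753). DEN itself was followed by log2 differences of 0.34 ± 0.21 in S302A (adjusted p = 0.401) and 0.09 ± 0.21 in wild type (adjusted p = 0.987), and after median-of-ratios scaling they were 0.04 and -0.08, with overlapping groups in both genotypes.

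RNA-binding proteins of the same kind were read together with Celf1. Of 18 genes for CELF, muscleblind and related GU-rich or AU-rich binding proteins, 13 were tested, Celf1 included, since Celf3, Celf4, Celf5, Celf6 and Mbnl3 stood too low. None passed in any contrast. After DEN, 8 of the 13 were higher in S302A and 5 lower, with a median log2 difference of 0.04. After median-of-ratios scaling 6 were higher and 7 lower, and without S302A_DEN replicate 3, 5 were higher and 8 lower. Zfp36, which encodes the AU-rich decay factor tristetraprolin, was at 30.7, 19.1 and 39.2 TPM in S302A_DEN, against 46.7, 47.1 and 70.8 TPM in WT_DEN (log2 difference -0.90 ± 0.32, adjusted p = 0.382). Zfp36l1, a relative of it, was at 42.4, 32.5 and 86.1 TPM in S302A_DEN, against 69.0, 93.0 and 80.9 TPM in WT_DEN, and it passed without S302A_DEN replicate 3 (-1.09, adjusted p = 0.0265). Of the 12 genes for CUGBP1 kinases and translation partners, all 12 had a positive DEN difference in S302A, against 79.4% of all tested genes. Their median was 0.38, beside 0.27 over all genes, and none passed. After median-of-ratios scaling 9 were positive, and likewise 9 without S302A_DEN replicate 3 (median 0.07, beside 0.00). Calr, which encodes the chaperone calreticulin, known to bind CUGBP1 target RNAs, was at 741, 710 and 678 TPM in S302A_DEN, against 356, 429 and 308 TPM in S302A_Ctrl, with no overlap (log2 difference 0.97 ± 0.22, adjusted p = 0.0654, and 0.0434 without S302A_DEN replicate 3). Eif2s1, which encodes the alpha subunit of eIF2, was at 16.9, 15.4 and 33.2 TPM in S302A_DEN, against 11.9, 14.3 and 12.1 TPM in S302A_Ctrl (adjusted p = 0.283). Eif2b5, a subunit of the exchange factor of eIF2, averaged 19.2 ± 6.01 TPM in S302A_DEN and 13.3 ± 0.829 TPM in S302A_Ctrl (SD, n = 3 each), and 18.0 ± 1.46 TPM in WT_DEN and 14.2 ± 0.645 TPM in WT_Ctrl.

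Psmd10, the gankyrin gene, was high in 1 library. It was at 8.65, 7.71 and 24.6 TPM in S302A_DEN, against 5.89, 7.22 and 6.03 TPM in S302A_Ctrl. In the wild type Psmd10 was at 10.5, 7.09 and 6.70 TPM in WT_DEN, against 8.95, 7.12 and 7.36 TPM in WT_Ctrl. The wild-type groups overlapped, and 2 of the 3 S302A_DEN libraries lay within the wild-type range. The DEN difference was 0.81 ± 0.35 in S302A (adjusted p = 0.291) and 0.03 ± 0.35 in wild type (adjusted p = 0.997). The interaction was 0.78 ± 0.50 (95% interval -0.30 to 1.87, adjusted p = 0.975). Without S302A_DEN replicate 3 the DEN difference in S302A was 0.32 (adjusted p = 0.456), and after median-of-ratios scaling it was 0.52 in S302A (adjusted p = 0.115) and -0.13 in wild type (adjusted p = 0.789). The rise of Psmd10 in that library over its partners, 1.48 on the log2 scale, was larger than that of 87.8% of tested genes.

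Gankyrin is a chaperone of the 19S particle, so Psmd10 was also read against the particle's other genes. The median of 20 other genes for 19S subunits and chaperones was 72.9, 55.6 and 87.6 TPM in S302A_DEN, 58.8, 62.5 and 53.2 TPM in S302A_Ctrl, 79.8, 61.8 and 64.8 TPM in WT_DEN and 67.0, 61.1 and 55.7 TPM in WT_Ctrl. Psmd10 amounted to 11.9%, 13.9% and 28.1% of that median in S302A_DEN, against 10.02%, 11.6% and 11.3% in S302A_Ctrl. It amounted to 13.2%, 11.5% and 10.3% in WT_DEN, against 13.4%, 11.7% and 13.2% in WT_Ctrl. Outside S302A_DEN replicate 3 the share thus stayed between 10.02% and 13.9% in every library. All 21 tested 19S genes had a positive DEN difference in S302A and 20 of 21 in wild type, and none passed. Over all tested genes, 79.4% and 70.3% were positive. The 19S medians were 0.43 in S302A, beside 0.27 over all genes, and 0.15 in wild type, beside 0.13. After median-of-ratios scaling 15 of 21 were positive in S302A and 8 of 21 in wild type, and without S302A_DEN replicate 3 the count in S302A was 19 (median 0.22, beside 0.00). Psmc2, an ATPase subunit, was at 87.3, 67.0 and 105 TPM in S302A_DEN, against 58.9, 62.1 and 56.1 TPM in S302A_Ctrl (log2 difference 0.52 ± 0.19, adjusted p = 0.235). Psmc5, another ATPase of the ring, was at 90.6, 73.3 and 107 TPM in S302A_DEN, against 67.6, 65.1 and 63.8 TPM in S302A_Ctrl (adjusted p = 0.262). Psmd13, a lid subunit, averaged 47.6 ± 19.5 TPM in S302A_DEN and 31.0 ± 2.10 TPM in S302A_Ctrl.

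**Figure D3:**
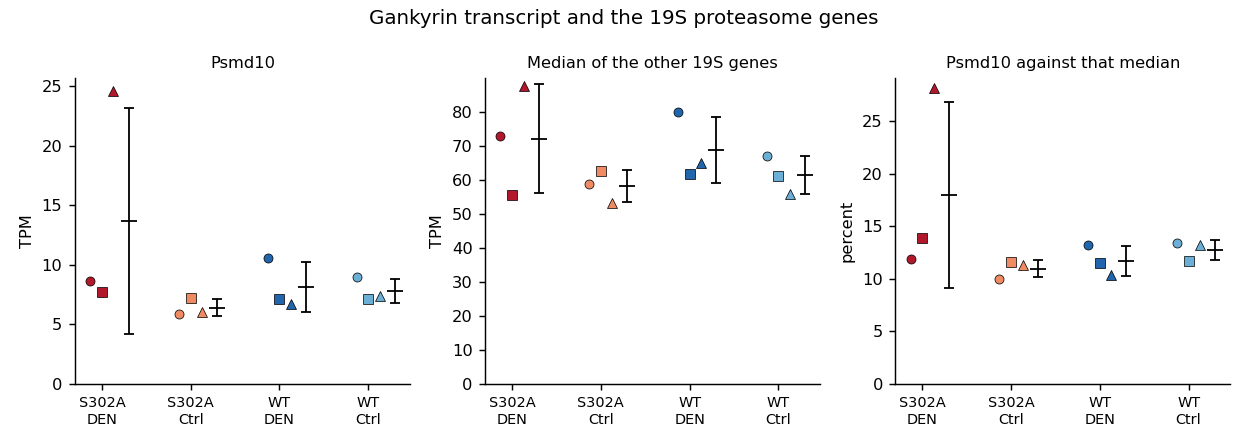
Psmd10 level in TPM (left), the median TPM of the 20 other 19S genes (middle) and Psmd10 as a percent of that median (right), by group on the x axis, with replicates 1, 2 and 3 as circles, squares and triangles and the mean ± SD of 3 libraries beside them. The percent is 28.1 in S302A_DEN replicate 3 and between 10.02 and 13.9 in the other 11 libraries.

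Of the 11 genes for gankyrin's partners, which include 4 members, 9 had a positive DEN difference in S302A and 9 in wild type. None passed, and positive differences made up 79.4% and 70.3% of all tested genes. The partners' medians were 0.38 in S302A, beside 0.27 over all genes, and 0.12 in wild type, beside 0.13. After median-of-ratios scaling 8 were positive in S302A and 4 in wild type, and without S302A_DEN replicate 3 the median in S302A was 0.12, with 8 positive. Psmc4, the ATPase that gankyrin grips in the 19S ring, was at 93.2, 82.9 and 100.1 TPM in S302A_DEN, against 70.6, 72.5 and 75.3 TPM in S302A_Ctrl, with no overlap between the groups. It was at 99.5, 77.7 and 79.4 TPM in WT_DEN, against 86.7, 79.4 and 71.8 TPM in WT_Ctrl. Rela, which encodes an NF-kappa-B subunit that gankyrin binds, was at 22.2, 18.0 and 38.9 TPM in S302A_DEN, against 16.9, 15.7 and 16.5 TPM in S302A_Ctrl (log2 difference 0.58 ± 0.25, adjusted p = 0.285). As for Psmd10, the highest value of Rela was in S302A_DEN replicate 3.

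Hnf4a, which encodes a nuclear receptor that maintains hepatocyte identity, was higher in DEN-treated livers of both genotypes without passing the test. It lies on chromosome 2 from 163506808 to 163572910 on the plus strand, where the opposite-strand gene Hnf4aos, listed at 4.07 to 12.7 TPM, overlaps it. It was at 187, 149 and 173 TPM in S302A_DEN, against 126, 110 and 110 TPM in S302A_Ctrl. Wild-type livers held 157, 144 and 177 TPM of Hnf4a in WT_DEN, against 119, 121 and 107 TPM in WT_Ctrl. All 6 DEN libraries, at 144 to 187 TPM, lay above all 6 untreated libraries, at 107 to 126 TPM, which 3.07% of tested genes did in that direction. With DEN the difference was 0.55 ± 0.17 in S302A (adjusted p = 0.154) and 0.46 ± 0.17 in wild type (adjusted p = 0.460), a ratio of means of 1.47 and 1.38. Averaged over genotypes it was 0.50 ± 0.12 (adjusted p = 0.0548). That average passed without S302A_DEN replicate 2 (0.55, adjusted p = 0.0243) and without S302A_DEN replicate 3 (0.49, adjusted p = 0.0206), and it stood at 0.26 (adjusted p = 0.327) after median-of-ratios scaling, under which the groups overlapped. Over all alternatives its adjusted p ran from 0.0206 to 0.327. The genotypes were near each other: the log2 difference of S302A from wild type was 0.09 after DEN (95% interval -0.27 to 0.45) and -0.00 without DEN (-0.36 to 0.36). Hnf4a was among the 2 members that did not stand above both partners in S302A_DEN replicate 3.

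Among 21 tested genes for liver-enriched transcription factors, 14 had a positive DEN difference in S302A (median 0.35, beside 0.27) and 16 in wild type (median 0.28, beside 0.13). The shares of positive differences over all tested genes were 79.4% and 70.3%. After median-of-ratios scaling the counts of the list were 11 and 15. Leaving out S302A_DEN replicate 3 gave 13 in S302A (median 0.13, beside 0.00). Foxa3, which encodes a forkhead factor of hepatocytes, rose with DEN averaged over genotypes (0.80 ± 0.17, adjusted p = 0.0435). It was at 27.3, 33.9 and 26.3 TPM in S302A_DEN, against 22.7, 15.2 and 13.4 TPM in S302A_Ctrl, and at 26.5, 26.2 and 36.5 TPM in WT_DEN, against 19.4, 14.8 and 14.1 TPM in WT_Ctrl. The call was lost when any 1 of 10 libraries was left out (0.73 to 0.91, adjusted p from 0.0542 to 0.127), with a replicate block (adjusted p = 0.0749), with no filter on low values (adjusted p = 0.178), after median-of-ratios scaling (0.57, adjusted p = 0.140) and after quantile normalization (0.53, adjusted p = 0.170). Xbp1, which encodes a factor of the unfolded protein response, was at 178, 180 and 118 TPM in S302A_DEN, against 86.1, 98.6 and 80.4 TPM in S302A_Ctrl (0.82 ± 0.22, adjusted p = 0.109), and without S302A_DEN replicate 3 it passed (1.02, adjusted p = 0.0182). Nr1i3, which encodes the xenobiotic receptor CAR, was at 45.4, 60.6 and 106 TPM in S302A_DEN, against 182, 223 and 298 TPM in WT_DEN, with no overlap (-1.77 ± 0.36, adjusted p = 0.0632). It passed without S302A_DEN replicate 3 (-2.11, adjusted p = 0.00946) and after median-of-ratios scaling (-1.82, adjusted p = 0.0241). Ppara, which encodes the fatty acid receptor, was at 23.3, 21.6 and 24.2 TPM in S302A_DEN, against 29.9, 42.0 and 51.4 TPM in WT_DEN, again with no overlap (-0.78 ± 0.22, adjusted p = 0.208).

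Genes that HNF4A and C/EBP alpha are known to drive in hepatocytes were read beside Hnf4a and Cebpa, neither of which differed detectably between genotypes after DEN. Of 17 such genes, 15 were lower in S302A_DEN than in WT_DEN, with a median log2 difference of -0.27 beside 0.07 over all tested genes. The general hepatocyte markers, which share Alb, Ttr and other genes with this list, also leaned lower in that comparison (8 of 10, median -0.19). Of the 17, 7 had an unadjusted p under 0.05, against 7.83% of all tested genes, and none passed. After median-of-ratios scaling 15 were lower (median -0.31), and after quantile normalization 13. Leaving out S302A_DEN replicate 3 also gave 15 lower, with a median of -0.40 beside -0.20 over all genes, of which only 21.0% were then higher. Apoa2, an apolipoprotein of high-density lipoprotein, was at 22790, 19111 and 11364 TPM in S302A_DEN, against 33707, 34442 and 32476 TPM in WT_DEN (-0.98 ± 0.30, adjusted p = 0.271). Apoc3, an inhibitor of triglyceride clearance, was at 6228, 5622 and 3463 TPM in S302A_DEN, against 9191, 9744 and 9132 TPM in WT_DEN (-0.92 ± 0.25, adjusted p = 0.192). For both genes the groups did not overlap, and S302A_DEN replicate 3 was the lowest library. Apom, which encodes a carrier of sphingosine phosphate, went the other way, at 288, 314 and 355 TPM in S302A_DEN, against 232, 303 and 261 TPM in WT_DEN. DEN in wild type gave a positive difference for 14 of the 17, against 70.3% of all tested genes (median 0.18, beside 0.13). After median-of-ratios scaling it gave one for 9. DEN in S302A gave one for 9 of the 17, against 79.4% of all tested genes (median 0.02, beside 0.27). That count was 2 after median-of-ratios scaling and 5 after quantile normalization. Leaving out S302A_DEN replicate 3 gave 10, with a median of 0.02 beside 0.00 over all genes. DEN in S302A passed for Apom (0.64, adjusted p = 0.0463) and DEN in wild type for Apoc3 (1.05, adjusted p = 0.0185) without S302A_DEN replicate 3. That library is not in the wild-type comparison, which then called 2.17% of all genes, against 0.132% with all libraries. Both DEN comparisons share the WT_DEN or the S302A_DEN libraries with the comparison of genotypes above.

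**Figure D4:**
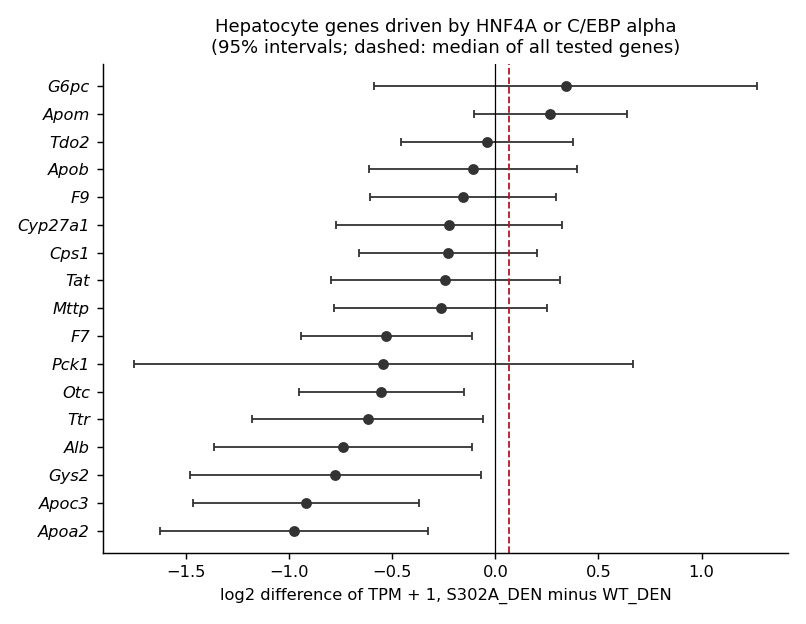
Log2 difference of TPM + 1 between S302A_DEN and WT_DEN (x axis) for the 17 hepatocyte genes known to be driven by HNF4A or C/EBP alpha, with 95% intervals from the limma fit. 15 points lie below 0 and 2 above, and the dashed line at 0.07 is the median of all tested genes.

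Nr1h4, the gene of the bile acid receptor FXR, stood lower in knock-in than in wild-type livers after DEN without passing the test. The gene is on chromosome 10 from 89454234 to 89533585 on the minus strand. It was at 67.4, 66.4 and 81.3 TPM in S302A_DEN, against 126, 94.8 and 97.6 TPM in WT_DEN, with no overlap. Without DEN it was at 74.3, 86.9 and 80.4 TPM in S302A_Ctrl, within the range of 103, 51.1 and 73.3 TPM in WT_Ctrl. The genotype difference was -0.55 ± 0.24 after DEN (adjusted p = 0.566) and 0.14 ± 0.24 without DEN (adjusted p = 1). The DEN difference was -0.17 ± 0.24 in S302A (adjusted p = 0.690) and 0.53 ± 0.24 in wild type (adjusted p = 0.588). Its interaction of -0.69 ± 0.33 did not pass (95% interval -1.42 to 0.03, adjusted p = 0.975). The difference after DEN kept its sign in all 20 alternatives, from -0.65 to -0.43, with adjusted p from 0.135 to 1. The gap remained after median-of-ratios scaling, and without S302A_DEN replicate 3 it was -0.65 (adjusted p = 0.135).

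Nr1h4 was read together with genes that FXR controls or works with. Of these 15 tested genes, Nr1h4 included, 11 were lower in S302A_DEN than in WT_DEN (median -0.13, beside 0.07 over all genes), and none passed. The count was 12 after median-of-ratios scaling (median -0.17). Leaving out S302A_DEN replicate 3 gave 13 (median -0.53, beside -0.20 over all genes), and 3 passed, against 5.89% of all tested genes. These were Slc27a5 and, named after their values were seen, Abcb4 and Abcc2, which encode canalicular exporters. With all libraries Abcb4 stood at 0.09 (adjusted p = 0.990) and Abcc2 at -0.02 (adjusted p = 1). Slc27a5, which encodes the ligase that readies bile acids for conjugation, was at 307, 227 and 221 TPM in S302A_DEN, against 508, 463 and 455 TPM in WT_DEN (-0.93 ± 0.18, adjusted p = 0.0611). Without S302A_DEN replicate 3 it passed (-0.84, adjusted p = 0.0186), and likewise without S302A_DEN replicate 1 (-1.08, adjusted p = 0.0412). Slc10a1, which encodes the main bile acid importer of hepatocytes, was at 368, 233 and 149 TPM in S302A_DEN, against 544, 522 and 538 TPM in WT_DEN (-1.19 ± 0.33, adjusted p = 0.192). Both genes had separate groups. Nr0b2, which encodes SHP, the corepressor that FXR induces, was at 85.1, 68.8 and 59.7 TPM in WT_DEN, against 23.3, 23.4 and 33.2 TPM in WT_Ctrl (1.39 ± 0.40, adjusted p = 0.279). With only the libraries of that contrast it passed (1.39, limma adjusted p = 0.0187), in a setting that called 147 genes in all. In the knock-in it was at 61.4, 27.0 and 41.1 TPM in S302A_DEN, within the range of 22.4, 80.6 and 49.0 TPM in S302A_Ctrl (-0.13 ± 0.40, adjusted p = 0.871). The interaction of Nr0b2 was -1.52 ± 0.57 (adjusted p = 0.759), so the genotypes were not shown to differ in it.

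**Figure D5:**
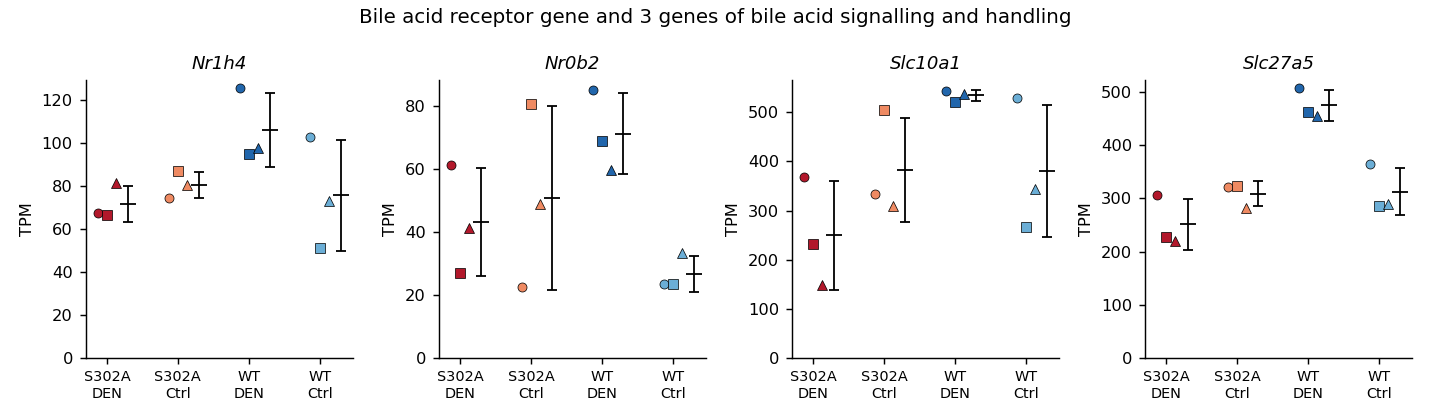
TPM (y axis, from 0) of Nr1h4 and of 3 genes of bile acid signalling and handling, by group on the x axis, with replicates 1, 2 and 3 as circles, squares and triangles and the mean ± SD of 3 libraries beside them. For Nr1h4, Slc10a1 and Slc27a5 the S302A_DEN libraries lie below the WT_DEN libraries without overlap, and for Nr0b2 the WT_DEN libraries lie above those of WT_Ctrl.

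Cebpa, which encodes C/EBP alpha, an antiproliferative factor of mature hepatocytes, gave overlapping groups in all 4 comparisons. The gene is on chromosome 7 from 35119293 to 35121928 on the plus strand. It was at 131, 103 and 105 TPM in S302A_DEN, against 162, 123 and 135 TPM in S302A_Ctrl. Wild-type levels were 131, 108 and 102 TPM in WT_DEN, against 133, 95.6 and 124 TPM in WT_Ctrl. Its highest library was in S302A_Ctrl and its lowest in WT_Ctrl. For DEN the difference was -0.31 ± 0.20 in S302A (95% interval -0.73 to 0.12, adjusted p = 0.413) and -0.05 ± 0.20 in wild type (-0.47 to 0.38, adjusted p = 0.988). After median-of-ratios scaling every S302A_DEN library lay below every S302A_Ctrl library. In S302A_DEN replicate 3 it stood between its partners, where 87.0% of genes stood above both.

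Cebpb, which encodes C/EBP beta, a factor induced in liver stress and regeneration, was the most variable member within groups. It lies on chromosome 2 from 167688915 to 167690418 on the plus strand, overlapped by the opposite-strand gene Tmem189, listed at 3.71 to 9.89 TPM. It was at 45.5, 30.1 and 45.7 TPM in S302A_DEN, against 42.2, 19.8 and 33.5 TPM in S302A_Ctrl. In wild type it was at 19.9, 43.2 and 69.7 TPM in WT_DEN, against 28.6, 32.1 and 39.5 TPM in WT_Ctrl. The 3 WT_DEN libraries spanned nearly the whole range of the series, and no pair of groups separated. The DEN difference was 0.37 ± 0.39 in S302A (95% interval -0.48 to 1.23, adjusted p = 0.591) and 0.24 ± 0.39 in wild type (-0.62 to 1.09, adjusted p = 0.966), so a doubling was not outside the interval in either genotype. After median-of-ratios scaling the differences were 0.07 and 0.06. Among 10 tested genes of the C/EBP family and its partners none passed. Ddit3, which encodes the stress factor CHOP, was at 11.9, 8.92 and 33.3 TPM in S302A_DEN, against 7.32, 7.76 and 8.18 TPM in S302A_Ctrl (0.90 ± 0.40, adjusted p = 0.297). Cebpz averaged 16.2 ± 4.43 TPM in S302A_DEN and 10.9 ± 1.35 TPM in S302A_Ctrl (adjusted p = 0.294). Trib1, which encodes an adaptor for degradation of C/EBP alpha, was at 7.44, 11.6 and 11.8 TPM in S302A_DEN, against 12.8, 14.4 and 16.2 TPM in WT_DEN, with no overlap.

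Hdac1, which encodes a histone deacetylase that joins repressor complexes, averaged between 10.9 and 12.7 TPM in every group but S302A_DEN. Its locus is on chromosome 4 from 129516104 to 129542713 on the minus strand. It was at 13.8, 10.2 and 23.7 TPM in S302A_DEN, against 11.5, 9.47 and 11.8 TPM in S302A_Ctrl. In wild type it was at 15.1, 10.03 and 13.1 TPM in WT_DEN, against 13.2, 10.6 and 12.1 TPM in WT_Ctrl. The highest value was in S302A_DEN replicate 3 and the groups overlapped in all comparisons. DEN gave a difference of 0.43 ± 0.28 in S302A (adjusted p = 0.417) and 0.07 ± 0.28 in wild type (adjusted p = 0.988), and after median-of-ratios scaling these were 0.13 and -0.09. Leaving out S302A_DEN replicate 3 gave 0.11 in S302A (adjusted p = 0.840). Of 21 tested genes for deacetylases and co-repressors, 20 had a positive DEN difference in S302A and 14 in wild type, with none passing. Over all tested genes, 79.4% and 70.3% were positive. The list's medians were 0.37 (beside 0.27) and 0.11 (beside 0.13). After median-of-ratios scaling the counts of the list were 14 and 8, and leaving out S302A_DEN replicate 3 gave 12 in S302A (median 0.02, beside 0.00). Named after its values were seen, Hdac11 passed for DEN in S302A after median-of-ratios scaling and after quantile normalization. Those settings called 651 and 680 of 12120 genes in that contrast. Sin3b, also named after its values were seen, passed with Hdac5 for S302A after DEN without S302A_DEN replicate 3. Hdac5 was then at -0.72 (limma adjusted p = 0.0405). In that setting 5.89% of all tested genes passed, 700 genes, of which 630 were lower. Hdac5, a class II deacetylase, was at 18.4, 27.1 and 21.5 TPM in WT_DEN, against 12.7, 10.9 and 12.1 TPM in WT_Ctrl (0.85 ± 0.25, adjusted p = 0.290). Without S302A_DEN replicate 3, which is not in this comparison, the difference stayed at 0.85 and the adjusted p was 0.0306. All 4 groups share the model's estimate of spread, and DEN in wild type then called 258 genes, against 16. Hdac10 averaged 5.64 ± 1.53 TPM in S302A_DEN and 3.87 ± 0.476 TPM in S302A_Ctrl.

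Trp53, which encodes the tumour suppressor p53, was higher in all S302A_DEN than in all S302A_Ctrl libraries. It lies on chromosome 11 from 69580359 to 69591873 on the plus strand, and a processed pseudogene, Trp53-ps, lies on chromosome 17, so reads from a near-identical copy could be shared. It was at 17.9, 14.3 and 34.5 TPM in S302A_DEN, against 10.8, 11.7 and 14.3 TPM in S302A_Ctrl. The lowest S302A_DEN library, at 14.31 TPM, was barely above the highest S302A_Ctrl library, at 14.27 TPM. In wild type it was at 16.2, 12.3 and 14.1 TPM in WT_DEN, overlapping the 10.7, 9.48 and 12.9 TPM of WT_Ctrl. The DEN difference was 0.72 ± 0.29 in S302A (adjusted p = 0.261) and 0.34 ± 0.29 in wild type (adjusted p = 0.872). Without S302A_DEN replicate 3 the value in S302A was 0.37 (adjusted p = 0.345). Averaged over genotypes the DEN difference was 0.53 ± 0.20 (adjusted p = 0.186), and it passed in 1 alternative, without S302A_DEN replicate 2 (0.66, adjusted p = 0.0498). Over all alternatives the adjusted p ran from 0.0498 to 0.583.

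The regulators of p53 gave no call. Of 13 tested genes for the p53 family and its regulators, 11 had a positive DEN difference in S302A and 7 in wild type. None passed, and positive differences made up 79.4% and 70.3% of all tested genes. The medians of the list were 0.20 in S302A, beside 0.27, and 0.12 in wild type, beside 0.13. After median-of-ratios scaling 4 were positive in S302A and 5 in wild type. Leaving out S302A_DEN replicate 3 gave 5 positive in S302A, with a median of -0.05. Over all genes that median was then 0.00, with 49.3% positive. Mdm2, which encodes the ligase that gankyrin turns on p53 and is itself induced by p53, was at 11.2, 8.94 and 20.6 TPM in S302A_DEN, overlapping the 9.29, 9.77 and 9.41 TPM of S302A_Ctrl. It was at 13.04, 10.3 and 10.9 TPM in WT_DEN, overlapping the 11.4, 10.9 and 9.10 TPM of WT_Ctrl. Kat5, which encodes the acetyltransferase TIP60, was at 10.7, 8.33 and 16.1 TPM in S302A_DEN, against 6.03, 7.93 and 6.32 TPM in S302A_Ctrl (0.67 ± 0.26, adjusted p = 0.260). Rchy1, which encodes the p53 ligase PIRH2, averaged 18.1 ± 3.996 TPM in S302A_DEN and 15.3 ± 1.66 TPM in S302A_Ctrl, and 18.8 ± 1.08 TPM in WT_DEN and 15.4 ± 3.00 TPM in WT_Ctrl.

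Rb1, which encodes the retinoblastoma protein, stood near the floor of the table. It lies on chromosome 14 from 73183673 to 73325822 on the minus strand, overlapped on the opposite strand by Rcbtb2, listed at 8.81 to 15.6 TPM, and Lpar6, listed at 7.46 to 14.9 TPM. The strand setting of the quantification is not given in the sources used here, so reads of Rb1 and of these neighbours may not be fully separated. It was at 1.34, 1.41 and 3.97 TPM in S302A_DEN, against 1.89, 1.86 and 1.46 TPM in S302A_Ctrl. In wild type it was at 1.86, 1.47 and 1.94 TPM in WT_DEN, against 2.04, 1.43 and 1.71 TPM in WT_Ctrl. S302A_DEN thus held both the lowest and the highest libraries of the series. DEN gave a difference of 0.15 ± 0.26 in S302A (95% interval -0.40 to 0.71, adjusted p = 0.737) and 0.02 ± 0.26 in wild type (-0.54 to 0.57, adjusted p = 0.999). The difference in S302A was -0.20 without S302A_DEN replicate 3 (adjusted p = 0.508), and after median-of-ratios scaling Rb1 stood at -0.08 in S302A and -0.10 in wild type. At a level this close to 1 the added 1 on the log scale shrinks a difference.

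Around Rb1, 21 of 27 genes for pocket proteins, E2F factors, G1 cyclins and their inhibitors were tested, and Rbl1, E2f2, E2f7, Ccne2, Cdkn2a and Cdkn2b stood too low. Cdkn1a, which encodes the kinase inhibitor p21, a classical p53 target, was the only one to pass, and it rose with DEN in both genotypes. It was at 16.5, 11.9 and 31.0 TPM in S302A_DEN, against 1 in all 3 S302A_Ctrl libraries (3.27 ± 0.33, adjusted p = 0.00159). In wild type it was at 15.7, 16.7 and 18.0 TPM in WT_DEN, against 1, 2.66 and 1 TPM in WT_Ctrl (2.86 ± 0.33, adjusted p = 0.00693). The wild-type call was lost without WT_DEN replicate 3 (2.82, adjusted p = 0.0660). Apart from the 2.66 TPM in WT_Ctrl replicate 2, the untreated libraries stood at the floor of 1. Cdkn1a therefore met the filter only through the DEN libraries, where it was high, and both differences are measured from the floor. Neither call stood with no filter on low values, where the adjusted p was 0.0611 in S302A and 0.177 in wild type. E2f5 was at 3.88, 3.47 and 7.69 TPM in S302A_DEN, against 3.14, 2.25 and 3.08 TPM in S302A_Ctrl (0.59 ± 0.26, adjusted p = 0.295). E2f6, a repressive member of the family, averaged 12.3 ± 6.76 TPM in S302A_DEN and 6.97 ± 0.799 TPM in S302A_Ctrl. Cdkn2c, which encodes the CDK4 inhibitor p18, reached 18.0 TPM in S302A_DEN replicate 3, against 2.09 and 1.72 TPM in its partners and 1 to 1.22 TPM in S302A_Ctrl.

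The likeness of other genes to each member was described by Pearson's r of log2(TPM + 1) over the libraries, among tested genes with a mean of at least 5 TPM. These r values are descriptions across libraries that share groups, and for several members the outlying library sets them. Celf1 was most like Gm7120 (r = 0.86 over 12 libraries, 0.82 over the 11 without S302A_DEN replicate 3), followed by 2810459M11Rik (0.82 and 0.74) and 1110059E24Rik (0.81 and 0.75). Psmd10 was most like Tars2, which encodes mitochondrial threonyl-tRNA synthetase (0.99 and 0.97). Hdac1 was most like Dctn1, which encodes a dynactin subunit (0.97 and 0.93), and Trp53 was most like Dbndd2 (0.97 and 0.90). Cebpb was most like Gne, which encodes the key enzyme of sialic acid synthesis (0.85 and 0.89). Hnf4a over 12 libraries was most like U2af1l4 (0.93), Cdkn1a (0.93) and Thpo (0.92), the gene of thrombopoietin, and over 11 libraries most like Hnrnpc (0.95). Nr1h4 was most like Shpk over 12 libraries (0.93) and Taz over 11 (0.96), Cebpa like 5830473C10Rik (0.79) and Wash (0.88), and Rb1 like Slc22a23 (0.98) and Uox (0.94). Among the members themselves, Psmd10 and Hdac1 had the highest r over 12 libraries, 0.88, which was 0.55 over 11. Psmd10 and Trp53 had 0.86 over 12 and 0.39 over 11, and Psmd10 and Rb1 had 0.83 and 0.11. Celf1 and Psmd10 had 0.51 and 0.09. The likeness of Psmd10 to Trp53 and Rb1 over 12 libraries therefore rested on S302A_DEN replicate 3, while Hnf4a and Trp53 kept 0.63 and 0.65.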

How the data were processed

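RNA was sequenced from 12 mouse liver libraries, with 3 in each of the 4 groups that the labels name. Per the labels' protocols, total RNA was isolated with the RNeasy Plus Mini kit and libraries were made with Illumina TruSeq RNA preparation kits. Per the submitters' processing notes, the authors used kallisto and mm10, and the deposited values are TPM per gene symbol, with a lowest value of 1. The version, the annotation and the strand setting are not given in the sources used here. TPM keeps no depth, so depth per library is unknown. No library pair was identical.

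Genes with a TPM above 1 in at least 3 libraries were kept, 12120 of 31253. Log2(TPM + 1) was fitted in R 4.3.3 with limma 3.58.1 with a mean-variance trend, in 1 model of the 4 groups with 8 residual degrees of freedom and 7 contrasts. The procedure was tested on simulated data. Tests were two-sided with Benjamini-Hochberg adjustment over all 12120 genes and a threshold of 0.05. Each result was recomputed with a pseudocount of 0.1 or 0.5, without the filter, with a stricter filter (TPM of at least 5 in 3 libraries), after quantile normalization or median-of-ratios scaling, with a replicate block, from only the libraries of the contrast, and without each of the 12 libraries in turn.

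The 9 members, the 11 pathway lists and the 8 marker lists were chosen with earlier results of these data known, so no p is given over a list. Several pathway lists hold members, which are counted in their numbers. Named genes are the members, list genes that passed, up to 3 per list with the smallest unadjusted p in a pairwise contrast, and the 3 genes most like each member. A few genes that the rule names are not reported here. Where a list held fewer than its full number, the missing symbols were Paaf1 and Ly6g, which were not found. Reference sequences came from GENCODE M21.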

Additional observations from a re-analysis of the deposited data

Results flagged for a closer look

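Mbnl2, which encodes a muscleblind protein that competes with CUGBP1 in splicing, had its S302A libraries on opposite sides of the wild-type libraries with and without DEN, although neither genotype difference passed the test. It was at 11.5, 10.5 and 27.4 TPM in S302A_DEN, above all 3 WT_DEN libraries at 9.90, 8.43 and 10.3 TPM. Without DEN it was at 6.15, 6.58 and 5.95 TPM in S302A_Ctrl, below all 3 WT_Ctrl libraries at 8.36, 8.33 and 8.78 TPM. The genotype difference was 0.60 after DEN (limma adjusted p = 0.685) and -0.39 without DEN (limma adjusted p = 1). The interaction was 0.996 on the log2 scale (limma adjusted p = 0.872), so it did not pass. The DEN difference in S302A was 1.15 (adjusted p = 0.1004), and it passed without S302A_DEN replicate 3 (0.73, adjusted p = 0.0253), without S302A_DEN replicate 2 (1.38, adjusted p = 0.0361), after median-of-ratios scaling (0.85, adjusted p = 0.0119) and after quantile normalization (0.84, adjusted p = 0.0123).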

How the results depend on the processing

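The count of members past the threshold was 0 of 9 in every contrast under every alternative, except that the average DEN effect gave 0 to 2 when single libraries were left out, with 2 without S302A_DEN replicate 2 (Hnf4a and Trp53) and 1 without S302A_DEN replicate 3 (Hnf4a). Of 1226 alternative values for the members, 66 changed sign. None of those was called, and the largest main difference among them was 0.24 on the log2 scale.

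Counts over all genes moved more, and the cause was not tested. DEN in S302A called 75 genes, but 4 with no filter, 132 with a TPM of at least 5, 651 (306 higher and 345 lower, against 51 and 24) after median-of-ratios scaling, 680 after quantile normalization, 17 with only its own libraries, and 16 to 335 with 1 library left out. DEN in wild type called 16, but 1 with no filter, 33 after quantile normalization, 147 with only its own libraries, and 1 to 258 with 1 left out. S302A after DEN called 46, but 9 with no filter, 210 after median-of-ratios scaling, 188 after quantile normalization, 4 with only its own libraries, and 6 to 700 with 1 left out. S302A without DEN called 4, but 0 with no filter, 2 with only its own libraries, and 0 to 12 with 1 left out. The interaction called 5, but 12 after median-of-ratios scaling, 10 after quantile normalization, and 2 to 75 with 1 left out. The average DEN effect called 162, but 2 with no filter, 708 after median-of-ratios scaling, 719 after quantile normalization, and 17 to 1037 with 1 left out. The average S302A effect called 2, but 5 with a pseudocount of 0.1, 0 with no filter, 0 after quantile normalization, and 1 to 95 with 1 left out.

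Same-numbered libraries of different groups showed weak shared deviation at most: 18 pairs had r from -0.19 to 0.28, 5 of them above 0.1. Of 12 libraries, 6 were closest to their own number, a count without a chance level beside it. Replicate numbers were therefore not read as pairs. A replicate block gave 60, 5, 31, 3, 5, 87 and 6 called genes in the 7 contrasts in the order of the report, and 0 members. TPM near the floor of 1, as for Rb1, limits what could be seen, and no depth was available.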
